A study of Homo sapiens with 4 samples.

Results

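Clustered histone genes were followed in a profile of H3K27ac, an acetylated form of histone H3 that marks active promoters and enhancers, in A375 cells, an established melanoma line of human origin. Members were all table lines whose gene symbol begins with HIST1H, HIST2H, HIST3H or HIST4H, the older names of these genes. The rule found 129 lines, which named 65 genes and 92 distinct regions, of 91107 regions in all. Per the labels, all 4 chromatin immunoprecipitation libraries came from this 1 line. Cells of 2 libraries had 1 mM octanoate, a fatty acid of medium chain length, for 48 hours, and those of the other 2 had its vehicle, isopropanol, for as long. They do not say whether the 2 libraries of a group came from separate cultures. Every value comes from the authors' deposited table, which lists 1 comparison region by region and no library on its own, so depth is unknown and the spread between replicates could not be shown. Regions for which the authors gave an adjusted p-value are called tested regions, 36436 in all. The header does not say which group is the numerator, so fold changes are called positive or negative, and each error is the standard error of the authors' model.

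Clustered histone genes make the bulk of the histone protein that a cell needs while it copies its DNA. Most are short and lack introns. They are transcribed mainly in S phase from clusters of H1, H2A, H2B, H3 and H4 genes, many in head-to-head pairs that share a promoter. The factor NPAT, which cyclin E and CDK2 act on, gathers at these genes, and their mRNAs end in a stem-loop bound by SLBP and carry no poly(A) tail. The canonical H3 made by most of the H3 members is itself a substrate of the acetylation measured here.

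Of the 65 member genes, 5 encode linker histone H1, 16 H2A, 17 H2B, 13 H3 and 14 H4. HIST1H, on chromosome 6, had 50 of the genes. HIST2H and HIST3H, both on chromosome 1, had 12 and 2, and HIST4H4, on chromosome 12, was the only HIST4H gene. RefSeq lists 71 protein-coding genes with such an older symbol, and 6 of them were named on no line used here. These were HIST1H1T, HIST1H2AA, HIST1H2BA and HIST3H3, known as histone genes of the testis, and HIST1H3I and HIST1H4G. A region at distance 0, read here as one that overlaps the start of its gene, was listed for 64 of the 65 genes, the exception being HIST1H4L. RefSeq promoter windows existed for 60 of these 64 genes, and in 58 of them the RefSeq start lay inside the region. The exceptions were HIST1H2AL and HIST1H2BE.

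Sequences upstream of 6 member starts are shown because they lie in start regions whose values follow, and they were chosen after those values were seen. Each is the 250 bases before the RefSeq start (GRCh38.p14), 5′ to 3′ on the strand of the gene. Capitals mark the CCAAT box, the TATA box (TATAAA), the octamer (ATTTGCAT) and the H1 box (AAACACA) on either strand, where neighbouring matches can run together. The first 4 sequences are an H2A, an H3, an H1 and an H4 promoter of HIST1, and the last 2 belong to the HIST3H and HIST4H regions.
HIST1H2AG (chr6:27132793-27133042, + strand): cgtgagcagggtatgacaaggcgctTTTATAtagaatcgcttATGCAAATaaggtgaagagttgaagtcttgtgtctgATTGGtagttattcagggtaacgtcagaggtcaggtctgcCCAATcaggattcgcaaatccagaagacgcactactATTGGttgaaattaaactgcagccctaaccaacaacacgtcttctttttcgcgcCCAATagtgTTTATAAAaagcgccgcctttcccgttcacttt
HIST1H3B (chr6:26032100-26032349, - strand): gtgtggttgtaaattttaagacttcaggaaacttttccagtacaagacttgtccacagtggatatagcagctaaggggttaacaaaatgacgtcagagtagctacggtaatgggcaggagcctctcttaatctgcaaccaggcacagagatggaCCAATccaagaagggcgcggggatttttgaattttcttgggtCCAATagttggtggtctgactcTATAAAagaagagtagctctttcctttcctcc
HIST1H1E (chr6:26156079-26156328, + strand): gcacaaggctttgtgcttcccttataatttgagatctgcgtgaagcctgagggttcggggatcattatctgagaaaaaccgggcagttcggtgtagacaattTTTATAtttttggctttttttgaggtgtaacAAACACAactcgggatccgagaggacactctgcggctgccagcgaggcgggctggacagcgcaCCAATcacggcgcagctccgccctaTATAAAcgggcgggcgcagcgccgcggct
HIST1H4D (chr6:26189113-26189362, - strand): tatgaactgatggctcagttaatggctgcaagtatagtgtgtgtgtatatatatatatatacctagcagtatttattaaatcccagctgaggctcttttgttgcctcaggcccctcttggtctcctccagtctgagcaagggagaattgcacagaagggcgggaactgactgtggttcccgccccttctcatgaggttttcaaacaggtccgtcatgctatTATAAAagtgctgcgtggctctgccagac
HIST3H2A (chr1:228457874-228458123, - strand): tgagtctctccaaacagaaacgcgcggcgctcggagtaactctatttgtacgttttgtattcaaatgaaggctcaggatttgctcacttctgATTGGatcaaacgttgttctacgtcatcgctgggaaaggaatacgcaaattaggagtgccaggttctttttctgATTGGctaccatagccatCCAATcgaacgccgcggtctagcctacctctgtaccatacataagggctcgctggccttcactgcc
HIST4H4 (chr12:14771132-14771381, - strand): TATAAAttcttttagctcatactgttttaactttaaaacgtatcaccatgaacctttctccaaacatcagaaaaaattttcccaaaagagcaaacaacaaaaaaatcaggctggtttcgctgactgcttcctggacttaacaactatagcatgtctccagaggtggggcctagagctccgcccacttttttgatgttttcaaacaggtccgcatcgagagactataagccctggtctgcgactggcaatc

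The HIST1H2AG stretch spans the whole interval to HIST1H2BJ, which starts on the opposite strand 248 bases away. RefSeq held 65 windows for 61 member genes. CCAAT was found in 86.2% of these windows and in 32.0% of 35116 RefSeq windows of the same length, TATAAA in 66.2% and 10.7%, and the octamer in 38.5% and 1.63%. By class, CCAAT was in all 53 windows of H1, H2A, H2B and H3 genes and in 3 of 12 H4 windows. The octamer was in 10 of 15 H2A and 14 of 19 H2B windows, in 1 of 14 H3 windows and in none of the H1 or H4 windows. AAACACA was in all 5 H1 windows and in no other member window, against 4.82% of all windows. Neither HIST3H2A nor HIST4H4 held the octamer. Windows of a head-to-head pair overlap, so these counts are not independent, and a match describes letters only.

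The member starts were packed into few, wide regions. The 64 genes shared 28 start regions in the authors' deposited table, of which 18 held several member genes, 54 genes in all, and 5 held 4 or more. Of 12 pairs of member genes that started head to head less than 1 kb apart, 10 were H2A and H2B pairs with starts 194 to 248 bases apart, and both starts of each of the 12 pairs lay in 1 region. Genes in the same region have the same value and could not be told apart. Start regions of members had a median width of 7012 bases in the authors' deposited table, against 3186 for the start regions of all genes. Per kilobase, the median level of the member start regions was 21.8 in the authors' normalized units, against 25.3 for all 10642 start regions of the authors' deposited table.

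At their starts, the clustered histone genes stood near a log2 fold change of 0, where the start regions of other genes were mostly positive. Of the 28 member start regions, 25 were tested. Their log2 fold changes, as the authors' deposited table gives them, had a median of 0.046 (95% interval over regions -0.013 to 0.074). With the 3 others included the median was 0.048. The interval takes neighbouring regions as independent and carries no error between libraries, so it describes these regions and tests nothing. For the 9971 tested start regions of other genes, the median in the authors' deposited table was 0.35 and the quartiles 0.24 and 0.49. Of the 25 member regions, 24 lay below the median of all start regions, 20 among the lowest 10% and 18 among the lowest 5%. Fold changes of 0 or less were listed for 10 of the 25 and for 1.91% of all 9996 tested start regions in the authors' deposited table.

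**Figure D1:**
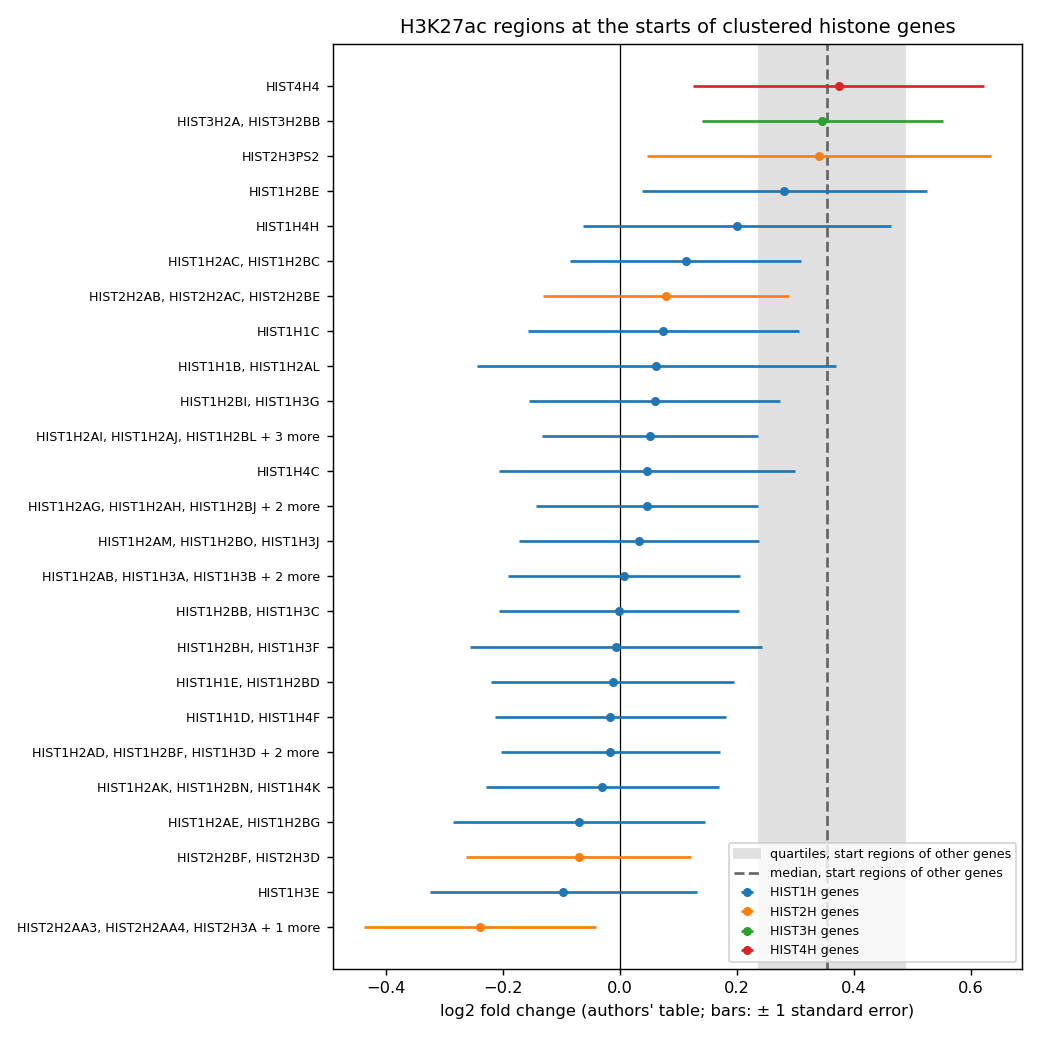
Log2 fold change (horizontal axis) of the 25 tested start regions of clustered histone genes, 1 region per row, with bars of 1 standard error as the authors give it. Colours name the cluster, and the grey band and dashed line give the quartiles and the median of 0.35 of the 9971 start regions of other genes. Most HIST1H and HIST2H regions lie between -0.10 and 0.11, left of the band, and HIST4H4, HIST3H2A and HIST2H3PS2 lie near the dashed line.

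None of these regions passed the test taken alone. In the authors' DESeq2 comparison, 0 of the 25 member start regions had an adjusted p-value under 0.05, where the background was 0.86% of the start regions and 1.67% of all tested regions. At an unadjusted p-value under 0.05, again 0 of the 25 were listed in the authors' deposited table, against 19.2% of the start regions, all of those positive. The standard errors of the 25 lay between 0.18 and 0.31 in the authors' deposited table, with a median of 0.21, against 0.255 for the start regions of other genes. Because the median of all 36436 tested regions was 0.32, a ratio of 1.25, each region was also set against it. Relative to that median, 2 of the 25 had an unadjusted p-value under 0.05 (background 0.19% of start regions below the median), the regions of HIST2H2AA3 (0.00443) and of HIST2H2BF (0.0409), both computed from the authors' deposited table. After Benjamini-Hochberg adjustment 0 of the 25 passed (background 0.03%), and the smallest adjusted value was 0.408. The difference between the member regions as a group and other start regions was not tested, since a test needs values per library.

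Member start regions also had lower fold changes than other starts above the same floors of width and level. Among start regions at least 5 kb wide with a mean level of at least 100 in the authors' deposited table, the 17 member regions had a median log2 fold change of 0.01 and the 2247 others one of 0.29. The floors do not match the groups, as these member regions were wider (median 10247 against 6781 bases) and stronger (median level 248 against 190). A fold change of 0 or less was listed in the authors' deposited table for 37 of all 2264 such regions (1.63%), and 8 of the 37 were member regions. Divided by mean level, the other start regions had medians of 0.49, 0.37, 0.31 and 0.30 from the lowest level to the highest. The members had 0.06 (1 region), 0.05 (5 regions), 0.03 (8 regions) and 0.03 (11 regions) in the same divisions of the authors' deposited table. The 1253 regions at the starts of exactly 2 genes other than histone genes, which include shared promoters, had a median of 0.31 in the authors' deposited table.

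**Figure D2:**
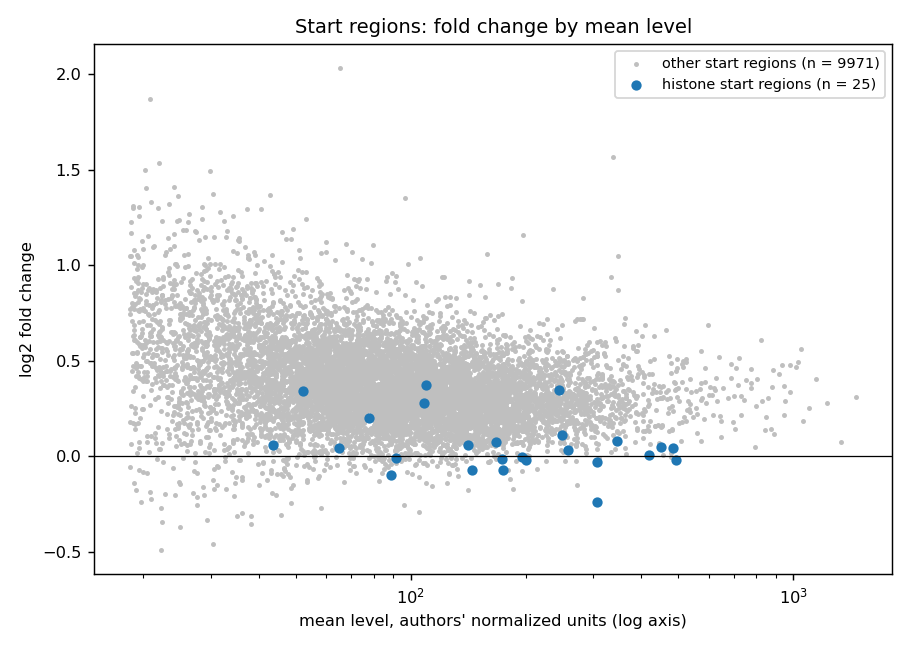
Log2 fold change (vertical axis) against mean level in the authors' normalized units (horizontal log axis) for tested start regions, 1 point per region, blue for the 25 regions of clustered histone genes and grey for 9971 others. The histone regions have levels from 43.5 to 493. Most lie low among the grey points, 20 of the 25 in the lowest 10% of start regions, and the rest, such as HIST4H4, lie further up among them. Some grey points lie lower than every histone region.

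The same was seen in each class of histone. Regions holding an H1 start had a median log2 fold change of 0.02 (4 tested regions), those with an H2A start 0.04 (12 regions) and those with an H2B start 0.03 (15 regions) in the authors' deposited table. For H3 starts, regions had a median of -0.002 (11 regions) and those with an H4 start 0.05 (9 regions) in the authors' deposited table. The classes share regions, so these medians are not independent of each other. Near 0 at the median were the 5 regions with 4 or more member starts (0.008) and the 13 with 2 or 3 (-0.002). Their ranges were -0.24 to 0.05 and -0.07 to 0.35. The 7 regions with 1 gene were higher at the median, 0.20, and spanned -0.10 to 0.37 in the authors' deposited table. These 7 were HIST1H3E (-0.10), HIST1H4C (0.05), HIST1H1C (0.07), HIST1H4H (0.20), HIST1H2BE (0.28), HIST2H3PS2 (0.34) and HIST4H4 (0.37). The difference by number of genes was not tested.

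The 3 widest member regions were also the 3 with the highest mean level, and all lay in HIST1. The region with HIST1H2AD, HIST1H2BF, HIST1H3D, HIST1H4D and HIST1H4E (chr6:26187031-26207314) had a log2 fold change of -0.02 ± 0.19 (standard error) at a mean level of 493 in the authors' deposited table, which makes 24.3 per kilobase. It was the strongest region for core histones of all 4 kinds. The region with HIST1H2AG, HIST1H2AH, HIST1H2BJ, HIST1H2BK and HIST1H4I (chr6:27126438-27148746) had 0.05 ± 0.19 at a mean level of 483, and the one with 6 genes from HIST1H2AI to HIST1H4J (chr6:27805792-27828170) 0.05 ± 0.18 at 451 in the authors' deposited table. These 3 values differed by less than any of their standard errors. The region with HIST1H3B and 4 other genes (chr6:26019858-26039039) had 0.01 ± 0.20 and that of HIST1H1E and HIST1H2BD (chr6:26154706-26161170) -0.01 ± 0.21 in the authors' deposited table.

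Among linker histones, which bind DNA between nucleosomes, the strongest region held HIST1H1D with HIST1H4F (chr6:26231912-26241995), with a log2 fold change of -0.02 ± 0.20 in the authors' deposited table. HIST1H3E (chr6:26221737-26225157), which encodes a canonical H3, had the second lowest fold change of all 25 start regions, -0.10 ± 0.23, and the pair HIST1H2AE and HIST1H2BG (chr6:26213471-26220791) -0.07 ± 0.21 in the authors' deposited table. HIST1H2BE had the highest value among tested HIST1 start regions, 0.28 ± 0.24 in the authors' deposited table, in a region that does not hold its RefSeq start. This gene was named after its value was seen.

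HIST2 on chromosome 1 held the lowest fold change among member start regions. A region of 18901 bases (chr1:149837374-149856275) covers HIST2H2AA3, HIST2H2AA4, HIST2H3A and HIST2H3C, with -0.24 ± 0.20 (standard error) at a mean level of 306 in the authors' deposited table. It ranked 17 from the lowest among the 9996 tested start regions. The HIST2H2BF and HIST2H3D region (chr1:149808966-149815762) had -0.07 ± 0.19, and the region with HIST2H2AB, HIST2H2AC, HIST2H2BE and the non-histone gene BOLA1 (chr1:149883081-149890034) 0.08 ± 0.21 in the authors' deposited table. At 49.8 per kilobase this last region had the highest level for its length of all member start regions.

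HIST2H4A and HIST2H4B flank the region with the lowest value and carry almost no signal for their size. Their regions are 7147 and 8294 bases wide (chr1:149828937-149836084 and chr1:149856817-149865111), with mean levels of 1.25 and 4.38 in the authors' deposited table. Per kilobase these are 0.175 and 0.528, rank 1 and rank 4 from the lowest among all 10642 start regions. Neither region was tested, and their fold changes of 0.95 ± 1.48 and 0.53 ± 0.81 in the authors' deposited table are less than their standard errors. The 250 bases before the 2 RefSeq starts differed at 0 positions. Reads from such copies, and from HIST2H2AA3 and HIST2H2AA4 or HIST2H3A and HIST2H3C, cannot be placed with certainty, so all values of these 6 genes are uncertain. The 250 bases before the HIST2H3D and HIST2H3PS2 starts also differ little from each other, so reads there may be hard to place too. The part of the copies in the low levels was not tested.

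HIST3H, HIST4H4 and HIST2H3PS2, which lie away from the main clusters, had fold changes near those of other genes. The region of the head-to-head pair HIST3H2A and HIST3H2BB (chr1:228455225-228461043) had a log2 fold change of 0.35 ± 0.21 (standard error) in the authors' deposited table. HIST4H4 (chr12:14769455-14772423), the only HIST4H gene, had 0.37 ± 0.25, and HIST2H3PS2 (chr1:143902776-143906590) 0.34 ± 0.29 in the authors' deposited table. Their p-values adjusted by the authors were 0.336, 0.376 and 0.482. HIST4H4 alone of the 25 lay above the median of all start regions. A second HIST3H2BB region, 5003 bases from the gene's start, had 0.14 ± 0.41 in the authors' deposited table.

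Away from gene starts, regions named with histone genes divided by distance. The 24 regions within 10 kb of a member start had a median log2 fold change of -0.11, with 10 positive, in the authors' deposited table, against a median of 0.26 and 70.2% positive for all 14104 regions at that distance from a gene. Nearly all were weak, with a median level of 5.89 and a median standard error of 0.71, and 6 were tested, with a median of 0.16. HIST2H3D was named with 3 of them, with fold changes of -0.72, -0.88 and -0.49 and standard errors of 0.56, 0.90 and 0.65 in the authors' deposited table, and HIST2H2BE with 1 (-0.14 ± 0.79). The lowest of the tested ones lay 1200 bases from HIST1H2AL (chr6:27861984-27864155), at -0.32 ± 0.36 in the authors' deposited table.

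The 40 regions beyond 10 kb had a median of 0.58, and 38 were positive in the authors' deposited table, against a median of 0.25 and 70.5% positive for all 66361 regions at such distances. Of the 40, 24 were tested, all positive, and their median was 0.52 against 0.30 for all 22086 tested regions at such distances. An unadjusted p-value under 0.05 was listed for 9 of the 24, all positive, against a background of 17.7%. The adjusted p-value was under 0.05 for 1 of the 24 (background 1.97%), which is the only call among the 92 member regions of the authors' deposited table. This region (chr6:27667063-27673490) is named with HIST1H2BL, an H2B gene 134442 bases away, and had a log2 fold change of 0.95 ± 0.28 (standard error), with p = 0.000644 before and 0.0442 after the authors' DESeq2 adjustment. Counted from the median of all tested regions, its fold change was 0.63 and its adjusted p 0.711. Adjusted over all 91107 regions instead, p was 0.109.

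Among the 55 tested member regions, 3 of the other 4 with the highest fold changes were also named with HIST1H2BL. They lay at chr6:27687134-27688706 (0.97 ± 0.38), chr6:27692841-27694607 (0.90 ± 0.38) and chr6:27752029-27755006 (0.84 ± 0.30) in the authors' deposited table, with adjusted p-values of 0.16, 0.189 and 0.122. The remaining one was a region 10182 bases from HIST1H2AH (chr6:27157310-27158634), with 0.90 ± 0.44. The HIST1H2BL start region itself, named above with its 6 genes, stood at 0.05. HIST2H3PS2 was named with 11 regions beyond 10 kb, all positive in the authors' deposited table, with fold changes between 0.24 and 1.77, and 5 of them were not tested. The highest values, 1.77 ± 1.56 and 1.73 ± 1.22, were those of untested regions with mean levels of 1.07 and 2.04. The highest tested value was 0.75 ± 0.38. Each of these regions carries the name of the gene the authors assigned, which does not show that it acts on that gene.

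Regions of other genes inside the HIST1 block had higher median fold changes than the histone starts there. Between its first and last member region the block spans 1912 kb, and the authors' deposited table held 72 regions named with other genes there and none in the blocks of the other clusters. Of the 72, 68 were positive and 4 negative, against 73.7% positive of all regions. The 41 tested ones were all positive, with a median of 0.54. Of all tested regions 87.3% were positive, with a median of 0.32. At starts of other genes, 11 regions had fold changes in the authors' deposited table from 0.08 at BTN3A2 to 0.75 at BTN2A2, with a median of 0.36. The 19 tested HIST1 start regions ran from -0.10 to 0.28 in the authors' deposited table, with 11 positive, 8 negative and a median of 0.03. The groups are not matched, as these 19 were wider (median 7320 against 2352 bases) and stronger (median level 173 against 58.5) than the 11. HFE, an iron regulator whose start lies between HIST1H1C (0.07 ± 0.23) and HIST1H4C (0.05 ± 0.25), had 0.27 ± 0.28 in the authors' deposited table. Ranges of the starts of histone and other genes overlapped. HFE, BTN3A2, BTN2A2, HIST1H1C and HIST1H4C were named after their values were seen.

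**Figure D3:**
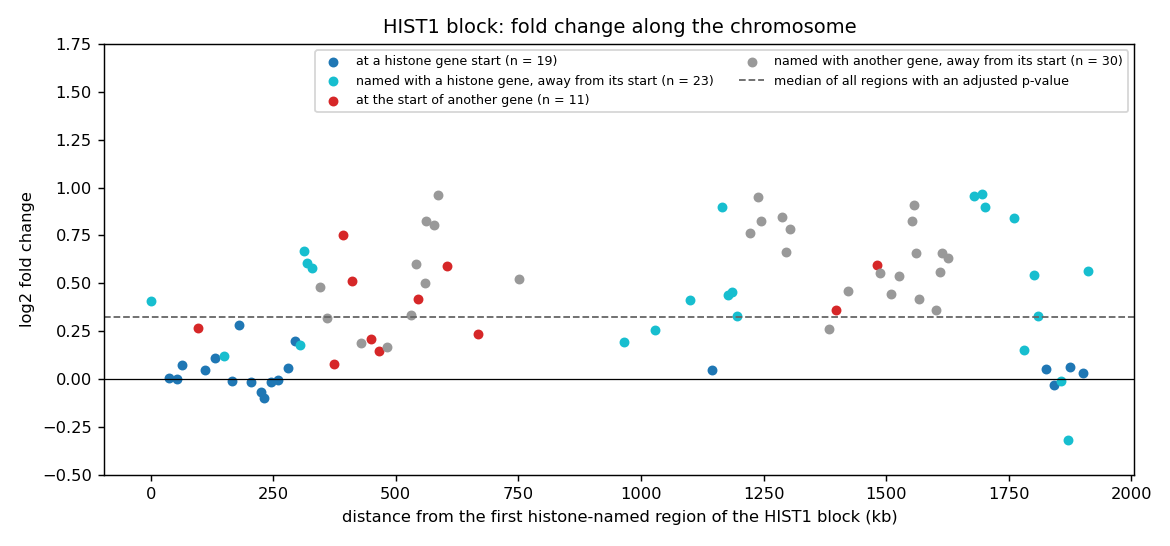
Log2 fold change (vertical axis) along the HIST1 block, plotted by distance in kb from its first histone-named region (horizontal axis), for tested regions, 1 point per region. Dark blue points, at histone gene starts, gather around 0 at both ends of the block, and the points of other genes and of regions away from starts lie mostly above the dashed median of 0.32.

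Genes that serve histone synthesis were looked up at their own starts. Of 24 regulators of histone genes, 23 had a start region, with a median log2 fold change of 0.37 in the authors' deposited table, all positive. None passed at an adjusted p-value under 0.05 in either direction, and 4 of the 23 (17.4%, against 19.2% of all tested start regions) had an unadjusted p-value under 0.05, SYMPK (0.54), CDK2 (0.52), E2F1 (0.71) and MYB (0.96), named after their values were seen. NPAT, the activator that gathers at histone genes, had, in a region shared with ATM, 0.41 ± 0.23 and SLBP, the stem-loop binding protein, 0.15 ± 0.21 (standard errors) in the authors' deposited table. The 13 start regions of histone chaperones, which carry histones to DNA, had a median of 0.19, and 0 passed in either direction, also at an unadjusted p-value under 0.05. The 20 start regions of S phase and replication genes had a median of 0.18, again with 0 in either direction at both thresholds in the authors' deposited table. The 80 start regions of ribosomal protein genes, another large family that dividing cells express strongly, had a median of 0.20, with 0 passing at an adjusted and 2 at an unadjusted p-value under 0.05. Each of these medians lay between those of the clustered histone genes and of other starts, except that of the regulators. These differences were not tested. Many start regions in these lists are also named with other genes, such as SYMPK with FOXA3 and CDK2 with PMEL and RAB5B. Their values cannot be assigned to 1 gene.

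Replacement and variant histones, which can be made outside S phase from genes outside the member rule, had start regions for 9 of 12 genes. H2AFJ, 1 of the 12, lies beside HIST4H4 on chromosome 12. The 9 start regions were all positive, with a median of 0.24 in the authors' deposited table. Those of H2AFX, H2AFZ, H3F3B and H1F0 are also named with other genes. None passed at an adjusted p-value under 0.05, and 1 of the 9 (11.1%, against 19.2% of all tested start regions) had an unadjusted p-value under 0.05, H2AFY2, a macroH2A gene, at 0.90 ± 0.37. The H3.3 genes H3F3A and H3F3B had 0.04 ± 0.20 and 0.42 ± 0.23 in the authors' deposited table, and the linker histones H1F0 and H1FX 0.12 ± 0.24 and 0.15 ± 0.24. H2AFX, whose phosphorylated form marks DNA breaks, had 0.16 ± 0.22, H2AFZ 0.32 ± 0.23 and H2AFV 0.24 ± 0.21, both H2A.Z genes, and CENPA, the H3 of centromeres, 0.39 ± 0.25 in the authors' deposited table. For the other 3 genes no region was listed at distance 0. Their strongest regions had listed distances of 18 bases for H2AFY (0.20 ± 0.24), -5 for H2AFJ (0.60 ± 0.33) and -18428 for H3F3C (0.35 ± 0.44).

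**Figure D4:**
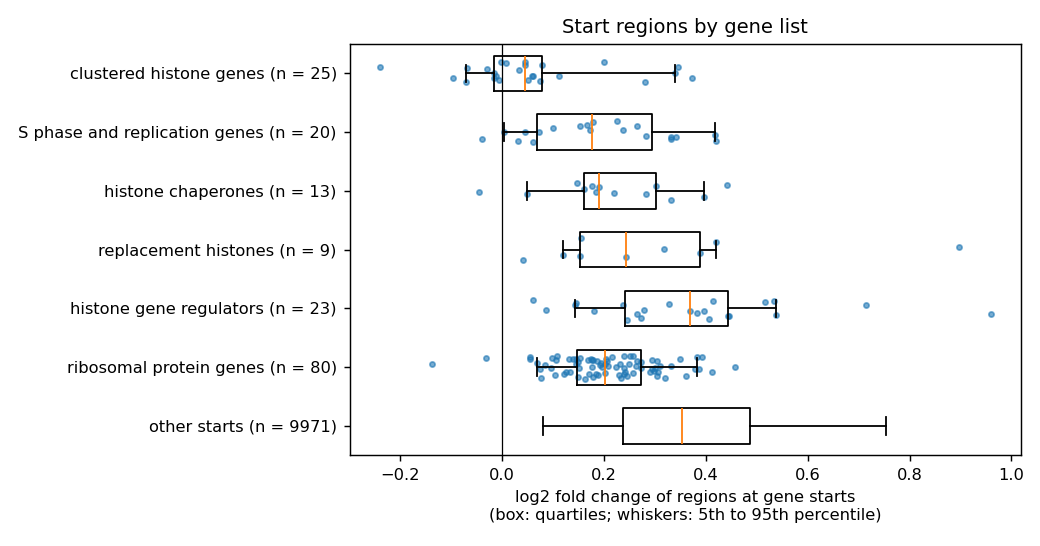
Log2 fold change (horizontal axis) of tested start regions, by gene list, with boxes of quartiles, whiskers from the 5th to the 95th percentile and 1 point per region in lists under 100 regions. The box of the 25 clustered histone regions, from -0.02 to 0.08, overlaps that of S phase genes, which begins at 0.07, and ends below the boxes of ribosomal protein genes (median 0.20), chaperones (0.19), replacement histones (0.24), regulators (0.37) and other starts (0.35). Single points of the lists overlap.

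As a check of the labelled cell type, the authors' deposited table held start regions for MITF, SOX10 and PMEL, of the melanocyte lineage (the last shared with CDK2), and none for MLANA, TYR or DCT. It held none for PTPRC, CD3E, PECAM1 or CDH5, markers of blood and vessel cells, and 1 each for the epithelial genes EPCAM and KRT8. No value per library was at hand, so whether single libraries stood apart was not tested.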

How the data were processed

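The assay was H3K27ac chromatin immunoprecipitation followed by sequencing, with 4 libraries of A375 cells, 2 per treatment. Per the submitters' processing notes the build was hg38 and the tools were Trim Galore, cutadapt, FastQC, Bowtie2, Picard, MACS2, featureCounts, DESeq2 and bedtools 2.29.1, with no role or order given. How reads that fit several histone copies were treated is not given in the sources used here. The mean level is the authors' normalized signal, per the file headers. Fold changes are deposited on the log2 scale with a standard error each, per the file headers. The statistic is a score that equals their ratio, per the file headers. The p-value and adjusted p-value are as deposited by the authors, and 1 stands for an adjusted value not computed, at mean levels of at most 18.44. The distance in bases is a score the authors assigned, per the file headers.

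Lines repeating a region were merged. Calls are adjusted p-values under 0.05. For centring, the median of the tested regions was subtracted, normal p-values were taken from the deposited standard errors and adjusted by Benjamini-Hochberg over the same regions. The computation was checked on simulated data with planted shifts far larger than those of the member regions. That check does not show whether shifts of the members' size could be found. Intervals of medians are binomial intervals over regions and carry no error between libraries. The planned count test could not be run without values per library, 0 columns of single libraries were left out, and depth is unknown. Named regions were the calls, the 5 highest and 5 lowest tested fold changes, the 3 smallest p-values, highest levels and widest regions, the strongest of each class, all of HIST2H, HIST3H and HIST4H, and NPAT, SLBP and replacement histones. RefSeq names (GRCh38.p14) matched all 65 genes. Members and lists were chosen with earlier results of these data known. Python 3.11.15, pandas 2.3.3 and SciPy 1.17.1 were used.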

Additional observations from a re-analysis of the deposited data

How the results depend on the processing

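The settings for start regions were chosen after seeing the data. The median log2 fold change of all 92 member regions was 0.25 in the authors' deposited table. It was 0.048 at distance 0 only, 0.046 with 1 region per gene, and -0.075 after centring. The share of positive member regions, 71.7%, was 44.6% after centring. The start-region median of 0.046 was 0.21 on leaving out HIST1H genes, which leaves 6 regions, and -0.28 after centring. It stayed between 0.03 and 0.07 in the other 12 settings tried. Among these, leaving out near-identical copies dropped only the HIST2H2AA3 region and left 24. The HIST2H3D region stayed through HIST2H2BF, and HIST2H3PS2 was not counted as a copy. The 1 member call of the authors' deposited table was lost, leaving 0, under a threshold of 0.01, under a minimum log2 fold change of 1 in size, with adjustment over all distinct regions (adjusted p-value 0.109 for the HIST1H2BL region) and after centring. Over all regions 608 calls became 128, 319, 250 and 45 in those settings. Among the regions named by rule, centring also turned the sign of 5 that had not passed, to -0.082 for HIST2H3PS2 (chr1:143497276-143498758), -0.24 for HIST2H2AB, -0.18 for HIST3H2BB (chr1:228463109-228463977), -0.28 for HIST1H2AG and -0.27 for HIST1H2AI, by construction. No paired analysis was possible because values of single libraries were not at hand, and for the same reason leaving out single libraries was not run.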
